A study of Caenorhabditis elegans with 2 samples.

Results

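The regions described are ChIP-seq peaks of PHA-2 that lie at promoters from which protein-coding genes run in 1 direction only. They were chosen by 3 criteria: a pooled signal of 80 or more, a summit between 1000 bp upstream and 500 bp downstream of the 5′ end of protein-coding genes that all lie on the same strand, and no tRNA, snoRNA or snRNA gene within 200 bp. Of the 30000 peaks in the pooled list, 2902 nuclear peaks reached that signal, and 843 of these met all 3 criteria and are called members here. The other nuclear peaks past the same signal comprised 307 at divergent protein-coding promoters, 1012 with no gene start of any kind in reach, 404 at starts of other non-coding genes, and 336 beside tRNA, snoRNA or snRNA genes. The signal value and the position chose the members, so both are described here without a test.

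The study mapped binding of a tagged PHA-2 in whole *Caenorhabditis elegans*, as 2 biological replicates of a single group that has no counterpart. The animals were late embryos of strain OP687, genotype unc-119(tm4063) III; wgIs687, of mixed sex, collected 3 h after synchronisation by bleaching of eggs. The integrated transgene wgIs687 adds GFP and FLAG to the C terminus of PHA-2, sonicated chromatin was precipitated with an antibody against GFP, and every animal carried the unc-119 mutation and the transgene. Whole embryos were used, so a peak can come from few or many of the cells, and a tagged protein made from a transgene need not match the level of the endogenous one. The control library shared by both replicates was not analysed here, and sequencing depth is unknown because the deposited lists hold peaks without read counts.

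PHA-2 is a homeodomain transcription factor of the Hex type, related to vertebrate HHEX, and it is needed to form the isthmus, the narrow middle part of the pharynx. Homeodomains bind short AT-rich sequences built around a TAAT core. Promoters of worm genes lie just upstream of the 5′ end, and many broadly expressed genes sit in small intergenic spaces that carry GA repeats and GC-rich words.

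The sequences below are the reference genome from 50 bp before to 50 bp after member summits, read 5′ to 3′ on the strand of the gene in reach, from the RefSeq copy of WBcel235, which is the assembly ce11. The first 6 are shown because they are the members of highest signal among those whose whole printed window is upstream of the gene and overlaps no annotated exon of any gene. The stronger members at ftt-2, T13C5.6 and W01D2.3 were left out because an exon of an ncRNA gene reaches into the window. Capitals mark GAGAGA or its complement TCTCTC, the Sp1-like word CCGCCC or GGGCGG, the word CTGCGTC or GACGCAG, the homeodomain core TAATT or AATTA, and a pair of words, GTGCG followed by TTGC after 4 to 9 bases.
K12H4.5 (chrIII:8043908-8044008, plus strand): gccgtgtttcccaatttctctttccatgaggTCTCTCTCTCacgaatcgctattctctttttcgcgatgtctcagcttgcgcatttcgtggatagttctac
rpl-3 (chrIII:3867560-3867660, plus strand): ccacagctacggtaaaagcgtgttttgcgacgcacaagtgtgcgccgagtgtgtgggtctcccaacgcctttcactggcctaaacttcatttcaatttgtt
M01F1.9 (chrIII:3499985-3500085, minus strand): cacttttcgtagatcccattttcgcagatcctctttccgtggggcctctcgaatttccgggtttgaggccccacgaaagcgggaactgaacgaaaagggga
F39G3.3 (chrV:4731553-4731653, plus strand): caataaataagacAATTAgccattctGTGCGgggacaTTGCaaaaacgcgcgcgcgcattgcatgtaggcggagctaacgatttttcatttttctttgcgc
npp-8 (chrIV:1595963-1596063, minus strand): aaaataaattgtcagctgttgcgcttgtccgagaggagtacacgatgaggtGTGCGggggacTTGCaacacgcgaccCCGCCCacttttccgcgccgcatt
usp-4 (chrIV:6756630-6756730, plus strand): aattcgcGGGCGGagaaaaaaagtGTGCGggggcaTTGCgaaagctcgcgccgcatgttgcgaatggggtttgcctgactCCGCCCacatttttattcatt

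None of these 6 windows carried the Hex-type words CAATTAA or CATTAAA on either strand, and only that of F39G3.3 carried the TAATT core. The window of K12H4.5 held a run of TC dinucleotides. Those of F39G3.3, npp-8 and usp-4 each held GTGCG and TTGC separated by exactly 6 bases, on the strand of the gene. The windows of npp-8 and usp-4 also held the Sp1-like word.

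A further set was picked after the values and sequences had been seen, to show the recurrent words in other members. It held hsp-1 for the GA repeat, sec-61.G for CTGCGTC, and rps-28 and ccdc-47 for the Sp1-like word. C46F11.4 and ndua-1 were added for the pair of words, and tbx-2 as a member beside a pharyngeal gene.
hsp-1 (chrIV:17278553-17278653, plus strand): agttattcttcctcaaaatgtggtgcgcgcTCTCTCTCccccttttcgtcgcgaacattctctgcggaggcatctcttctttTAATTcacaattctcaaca
sec-61.G and F32D8.13 (chrV:10897315-10897415, minus strand): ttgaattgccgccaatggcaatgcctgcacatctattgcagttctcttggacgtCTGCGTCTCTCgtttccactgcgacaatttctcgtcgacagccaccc
rps-28 and Y41D4B.4 (chrIV:1659207-1659307, plus strand): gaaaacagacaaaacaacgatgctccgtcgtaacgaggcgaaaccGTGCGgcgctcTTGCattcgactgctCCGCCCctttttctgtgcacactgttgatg
ccdc-47 (chrIII:3916775-3916875, plus strand): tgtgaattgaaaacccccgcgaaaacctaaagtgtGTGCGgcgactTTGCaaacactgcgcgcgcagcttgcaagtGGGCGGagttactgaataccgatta
C46F11.4 (chrIII:3664368-3664468, minus strand): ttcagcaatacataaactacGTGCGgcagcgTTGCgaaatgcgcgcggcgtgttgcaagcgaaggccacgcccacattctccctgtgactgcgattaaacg
ndua-1 (chrV:20852161-20852261, minus strand): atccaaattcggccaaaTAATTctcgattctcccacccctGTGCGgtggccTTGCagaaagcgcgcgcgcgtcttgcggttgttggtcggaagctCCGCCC
tbx-2 (chrIII:5136323-5136423, minus strand): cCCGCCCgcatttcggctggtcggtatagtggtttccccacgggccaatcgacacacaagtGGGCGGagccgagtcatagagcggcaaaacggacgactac

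In the windows of rps-28, ccdc-47, C46F11.4 and ndua-1 the pair again had a spacing of 6 bases. In those of rps-28, ccdc-47 and ndua-1 it stood within the same window as an Sp1-like word, for which rps-28 and ccdc-47 had been picked. Within 75 bp of the summit, 16 of the 39 members with the pair also held the Sp1-like word. The tbx-2 window, which lies 77 bp upstream of a T-box gene of pharyngeal development, held the Sp1-like word in both orientations and no TAATT. In sec-61.G the word CTGCGTC ran directly into TCTC.

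The pair of words was counted within 75 bp on either side of every summit, both strands read. It was found in 39 of 843 members (4.63%, 95% Clopper-Pearson interval 3.31 to 6.27%), against 4 of 843 windows 500 bp upstream of the same summits (0.474%) and 5 of 843 windows 500 bp downstream (0.593%). All positions that the rule could have reached, sampled every 200 bp, held it in 0.361% of 117618 windows. Among the strongest 100 members 17 held the pair, but the words were noticed in members of that set, so that count is a description only. The allowed spacing was also set after counts in every class had been seen. The 743 members below them held it in 22 cases (2.96%, interval 1.86 to 4.45%). Divergent promoter peaks, whose sequences had not been read when the words were noticed, held it in 38 of 307 cases (12.4%, interval 8.91 to 16.6%), whereas peaks with no gene start in reach held it in 16 of 1012 (1.58%). The share in members thus lay between those of the other classes. No test was made.

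**Figure D1:**
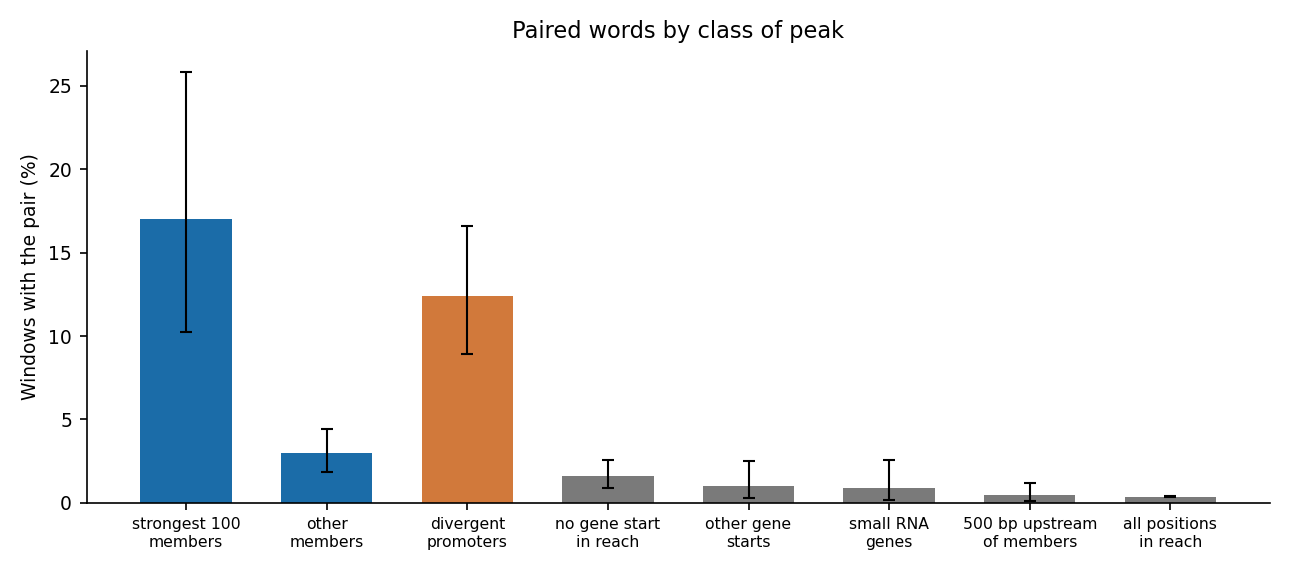
Share of windows, 75 bp to each side, that hold the pair of words, on either strand, for the strongest 100 members, the other 743 members, the other classes of peaks past the same signal, windows 500 bp upstream of member summits, and all positions in reach. Bars are shares in percent and whiskers are 95% Clopper-Pearson intervals over peaks or windows; the strongest members (17 of 100) and the divergent promoters (12.4%) stand above the rest.

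The pair lay on the gene's strand alone in 31 of the 39 members, on the opposite strand alone in 7 and on both in 1. Of these 39, 17 were among the strongest 100, in which the words were noticed. Direction and spacing were not counted without them, so both are a description only. Over all reachable positions, 227 windows held it on the gene strand and 206 on the opposite strand. The most frequent spacing in members was 6 bases, in 19 of 843 windows, while a spacing of 7 bases occurred in 0. A spacing of 6 bases was also the most frequent in divergent promoter peaks (23 of 307, with 0 at 7 bases). The same held over all reachable positions (140 of 117618 windows). Of the 39 members, 36 lay upstream of the 5′ end, with a median distance of −249 bp.

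Of the 41 genes in reach of these 39 members, 9 were in the gene lists, and of all 827 genes in reach of a member 153 were. The 9 were rpl-35, rpl-14 and rps-28, which encode cytosolic ribosomal proteins; swsn-3, a SWI/SNF chromatin remodelling subunit, and set-25, a histone H3 methyltransferase of heterochromatin; rpac-19, a subunit shared by RNA polymerases; pdi-2, a protein disulfide isomerase; npp-8; and clec-53, of the C-type lectin family. The others were in no list. The gene vps-39 had 2 members, 174 and 403 bp upstream, with the pair on the gene strand in one and on the opposite strand in the other.

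Member signals had a long upper tail. The pooled signal ranged from 80.01 to 803, with a median of 99.1 and quartiles of 87.2 and 124. Divergent promoter peaks had a median of 108 and peaks with no gene start in reach one of 93.4. The 3 members just inside the threshold lay at dab-1 (80.01), F57G12.1 (80.03) and rbm-7 (80.06), and the 3 peaks just outside it at C13A10.2 (79.9), gldi-4 (79.8) and uri-1 (79.8). The threshold therefore cut through a continuous range of values.

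The highest member lay 529 bp upstream of K12H4.5. It had a pooled signal of 803 and signals of 400.2 in replicate 1 and 399.5 in replicate 2, and it had rank 4 in each replicate list. No role is given here for K12H4.5. The next highest lay 577 bp upstream of ftt-2, which encodes a 14-3-3 adaptor protein that binds phosphorylated partners. It had a pooled signal of 666, with 319 in replicate 1 and 354 in replicate 2. A second ftt-2 member stood 779 bp upstream with a pooled signal of 377, and it was matched to the same replicate summits, 163 bp away in replicate 1 and 227 bp away in replicate 2. Each member was matched to the strongest replicate summit in its interval, so a weaker one nearer the second ftt-2 member would not show. Whether the replicates also held 2 summits at ftt-2 was not examined.

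The member 244 bp upstream of rpl-3, a ribosomal protein of the large subunit, had 376 pooled, 184 in replicate 1 and 183 in replicate 2. The member 189 bp upstream of npp-8, which encodes a nucleoporin, had a pooled signal of 339, with 179.8 in replicate 1 and 160.1 in replicate 2. Both were called at nearly the same height in the separate lists. The member 320 bp downstream of the 5′ end of tba-7, an alpha-tubulin, had 336 pooled, 183 in replicate 1 and 152 in replicate 2. It was 1 of 2 members among the 20 strongest whose summit lay downstream of the 5′ end, the other being K05C4.2, at a pooled signal of 386, with 207 in replicate 1 and 180.5 in replicate 2, which lay 344 bp downstream.

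The member 458 bp upstream of ntl-2, a subunit of the CCR4-NOT complex that shortens mRNA tails, had 290.6 pooled, 132 in replicate 1 and 161 in replicate 2. The member 723 bp upstream of sor-1, which acts in repression of Hox genes, had a pooled signal of 279, with 134 in replicate 1 and 147 in replicate 2. The member 193 bp upstream of swsn-3 had 279 pooled, with 172 in replicate 1 and 109 in replicate 2. The first 2 were higher in replicate 2 and the third in replicate 1.

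The remaining members among the 20 strongest had pooled signals between 274 and 459. They lay at T13C5.6 (459), W01D2.3 (388), M01F1.9 (373), F39G3.3 (340.2), usp-4 (337), a ubiquitin-specific protease, tos-1 (293), eel-1 (284), a HECT-type ubiquitin ligase, F08G2.5 (279.8), C46F11.4 (277) and hsp-1 (274), a constitutive heat-shock chaperone. The hsp-1 member had 154 in replicate 1 and 119 in replicate 2. All 20 belonged to the optimal list, the shorter set that the authors kept after comparing replicates. That follows from their high pooled signal, on which the list was cut, and is no separate support.

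The optimal list held 235 of the 843 members (27.9%), against 29.5% of all nuclear peaks past the threshold. That list was itself a cut on the pooled signal, which chose the members, so nothing is read from this share. A summit of each replicate fell inside the interval of 815 members (96.7%), against 96.5% of all nuclear peaks past the threshold. Both replicate summits were among the 2902 strongest of their own list in 405 members (48.0%), against 48.4% of all. In 53 members (6.29%) neither was, against 6.96% of all. The replicate lists share their reads with the pooled list, so these shares describe how members were called and do not test them.

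The pooled signal was close to the sum of the replicate signals, with a median ratio of 0.998 over the 815 members found in both. Across these 815 members the replicate signals had a Spearman rho of 0.326 and a Pearson r of 0.536 on the log10 scale. The divergent promoter peaks had a rho of 0.514 (n = 298) and the peaks with no gene start in reach one of 0.102 (n = 963). Within the 582 members outside the optimal list, whose pooled signals fill a narrow band above the threshold, rho was −0.267, so a higher value in one replicate went with a lower one in the other. Within the 233 members of the optimal list it was 0.416. All these coefficients describe peaks that share 2 libraries and a threshold on their sum, and no p is given.

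**Figure D2:**
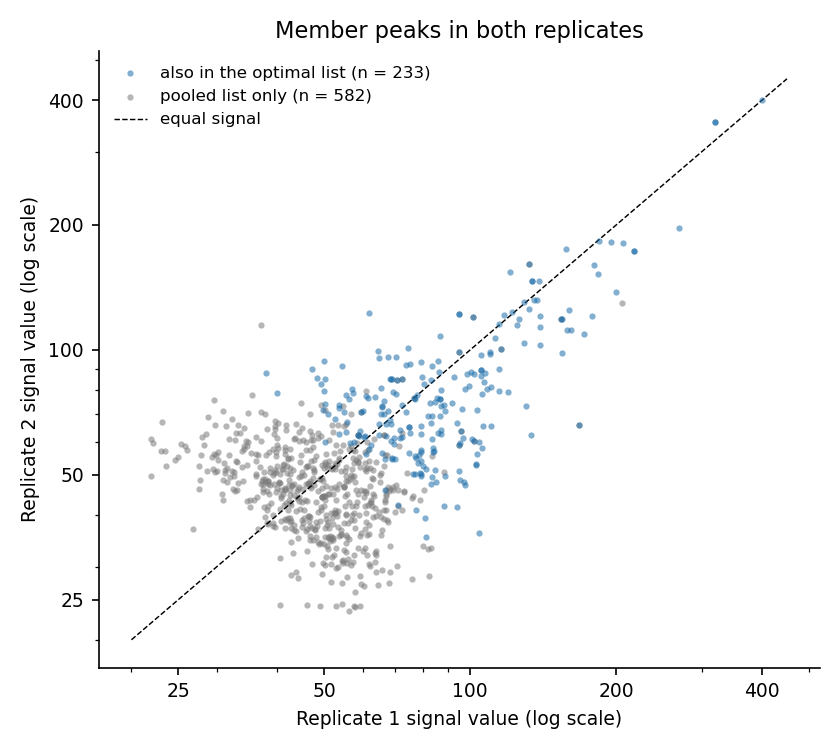
Signal value in replicate 1 (horizontal, log scale) and replicate 2 (vertical, log scale) of the 815 members with a summit in both replicate lists. Each point is a member, blue where it also stands in the optimal list (n = 233) and grey where it does not (n = 582); grey points spread across the dashed line of equal signal, while blue points follow it up to 400.2 and 399.5 at K12H4.5.

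The members whose replicate ranks differed most show how far apart the lists can be. Higher in replicate 1 were kin-20 (75.8 in replicate 1 and 28.1 in replicate 2), aat-9, Y54E10A.10, rsa-2 and K10D3.4. The gene kin-20 encodes a casein kinase I. Higher in replicate 2 were dnbp-1 (29.6 in replicate 1 and 75.7 in replicate 2), F47G9.4, ssu-1, a sulfotransferase, nhr-58, a nuclear hormone receptor, and mdl-1. For 5 of these 10 a replicate summit lay far from the member's own, 211 bp away in replicate 2 for rsa-2, 172 bp, 207 bp and 203 bp away in replicate 1 for K10D3.4, ssu-1 and nhr-58, so their values may come from different summits. The fifth, the mdl-1 member 41 bp upstream, took its replicate 2 value of 115 from a summit 139 bp away, which was also the one matched to the stronger mdl-1 member 274 bp upstream. That stronger member had 235 pooled, with 125 in replicate 1 and 115 in replicate 2, so 1 replicate 2 summit served both mdl-1 members. The encoded protein, MDL-1, is a Mad-like bHLH factor.

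Member summits gathered just upstream of genes. Of 843, 688 lay upstream of the nearest 5′ end (81.6%, interval 78.8 to 84.2%), and 64.3% of all positions that met the position criteria were upstream. The median distance was −238 bp, with quartiles of −488 and −66.5 bp, and over all eligible positions it was −211 bp with quartiles of −601 and 154 bp. The stretch from 100 to 300 bp upstream held 261 members (31.0%, interval 27.9 to 34.2%) and 13.4% of all eligible positions. The last 100 bp of the window, 400 to 500 bp downstream, held 16 members (1.90%) and 7.40% of eligible positions.

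**Figure D3:**
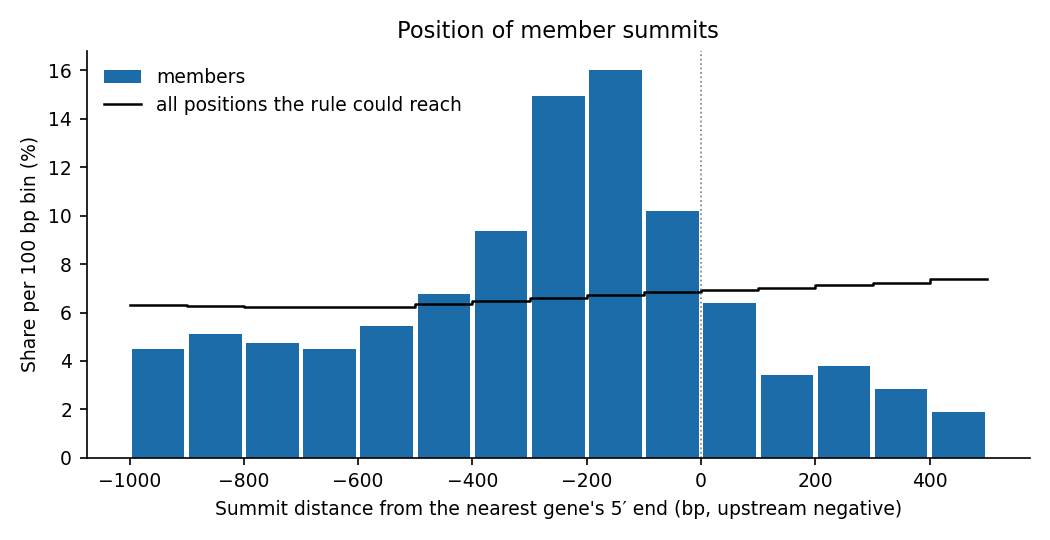
Share of member summits per 100 bp bin (bars, percent of 843) by distance from the nearest gene's 5′ end in bp, upstream negative, beside the share of all positions that the rule could reach (black line). The members peak at 16.01% between 200 and 100 bp upstream, where eligible positions make up 6.72%, and fall under the line from 0 to 500 bp downstream.

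Members upstream of the 5′ end had a median pooled signal of 102 and the 155 members at or downstream of it one of 90.8. Between protein-coding genes lay 586 summits (69.5%, interval 66.3 to 72.6%), against 44.9% of eligible positions. Coding exons held 48 (5.69%) against 24.98%, and introns 11.98% of summits against 20.1%. Exons of non-coding transcripts held 48 (5.69%) against 2.30%. The 5′ UTR held 42 (4.98%) against 3.55%, and the 3′ UTR 18 (2.14%) against 4.15%. Summits were thus sparse in coding sequence and frequent between genes.

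Many genes with a member stood in a larger intergenic space than usual. For the 753 nearest genes whose 5′ end was not inside another protein-coding gene, the median gap to the next protein-coding gene upstream was 1813 bp, against 1058 bp for all such genes (n = 18592). That neighbour ran on the same strand for 62.4% of them (interval 58.8 to 65.9%) and for 54.7% of all. The rule leaves out promoters where a start on the other strand lies close by, which favours both features.

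The X chromosome carried 162 members (19.2%, interval 16.6 to 22.0%), against 15.7% of eligible positions and 523 of all 2902 nuclear peaks past the threshold (18.02%). The divergent promoter peaks had 13 of 307 on X (4.23%), the peaks with no gene start in reach 146 of 1012 (14.4%), those at other non-coding starts 96 of 404 (23.8%) and those beside small-RNA genes 106 of 336 (31.5%). The members thus lay near the share of all peaks. Members on X had a median pooled signal of 103 and the others one of 98.2. The largest share, 194 members (23.0%), lay on chromosome V, which held 25.1% of eligible positions.

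Most members had 1 protein-coding gene in reach, in 810 cases, and 33 had 2. The strongest of the 33 lay 434 bp upstream of rps-28 and 853 bp upstream of Y41D4B.4, with 260.1 pooled, 139 in replicate 1 and 120.4 in replicate 2. Another stood 77 bp upstream of rpac-19 and 808 bp upstream of tbg-1, the gamma-tubulin of centrosomes, with a pooled signal of 189, with 98.6 in replicate 1 and 87.5 in replicate 2. Which of the genes such a peak belongs to cannot be told from position. In all 827 of 19973 nuclear protein-coding genes had a member in reach (4.14%). Of these, 47 had 2 members, and Y43F8C.3 had 3.

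Nearly all intervals had the same width of 456 bp. Narrower or wider were 16 members (1.90%) and 2.89% of all nuclear peaks past the threshold. Those 16 had a median pooled signal of 338 (range 176 to 803), against 98.5 for the 827 of common width. A gene of the annotation's ncRNA class lay within 200 bp of 94 members (11.2%) and of 18.7% of all nuclear peaks past the threshold. Those 94 members had a median pooled signal of 113, against 97.7 for the other members. A tRNA, snoRNA or snRNA gene stood beyond 200 bp but within 1000 bp of 15 members (1.78%), against 2.07% of all. The central 51 bp occurred more than once in the genome for 13 members (1.54%), against 3.10% of all. More than 50% of the summit window was marked as repeat in the reference for 180 members (21.4%), and for 24.4% of windows over all eligible positions.

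Cytosolic ribosomal protein genes were frequent among those in reach. Of 82 cytosolic ribosomal protein genes, 15 had a member (18.3%, interval 10.6 to 28.4%), against 4.14% of all protein-coding genes. After rpl-3 and rps-28 came rpl-35, with 171 pooled, 99.2 in replicate 1 and 82.0 in replicate 2, and rps-24, with 141, 72.4 and 73.6 in the same order. All 15 members lay upstream, between 159 and 647 bp from the 5′ end. Of 45 translation factors 5 had a member (11.1%, interval 3.71 to 24.1%), and the 4.14% of all genes lies inside that interval. They were led by eif-3.C, an initiation factor subunit, at a pooled signal of 253, with 139 in replicate 1 and 113 in replicate 2. The 70 mitochondrial ribosomal protein genes had 2 (2.86%, interval 0.348 to 9.94%), mrpl-15 and mrps-12, with pooled signals of 105 and 102. The mitochondrial interval ended at 9.94% and the cytosolic one began at 10.6%, and these lists were not tested against each other.

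Genes of transcription and chromatin had a share like that of cytosolic ribosomal protein genes. Of 76 chromatin regulators 15 had a member (19.7%, interval 11.5 to 30.5%). Below swsn-3 stood cbp-1, the worm CBP/p300 acetyltransferase, whose member 914 bp upstream had 251 pooled, 129 in replicate 1 and 130.2 in replicate 2. Next was mys-1, a MYST-family acetyltransferase, at 144, 97.1 and 48.1 in the same order. Then came set-25, at 128, 59.5 and 70.7. Of 67 genes of RNA polymerases and general transcription factors 11 had a member (16.4%, interval 8.49 to 27.5%), and 6 of 67 (8.96%) with a window of 500 bp upstream only. The 11 were led by rpac-19, the TFIID subunit gene taf-12 (169 pooled), ama-1, which encodes the largest subunit of RNA polymerase II (151.1 pooled, 83.7 in replicate 1 and 56.7 in replicate 2), and rpb-11 (147 pooled).

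Chaperones and the energy machinery followed. Of 73 chaperone genes 9 had a member (12.3%), led by hsp-1, the J-domain genes dnj-9 (152 pooled) and dnj-5 (149) and the prefoldin subunit gene pfd-5 (142). Nuclear genes of the respiratory chain and ATP synthase had 5 of 52 (9.62%), led by cox-5A at a pooled signal of 168, with 79.6 in replicate 1 and 86.2 in replicate 2, with cox-5B, nuo-2 and cyc-1 between 141 and 166. Vacuolar ATPase subunits had 2 of 20, vha-12 and vha-15, with pooled signals of 135 and 134. Splicing genes had 5 of 50, led by mog-4 (129.8 pooled), smu-1, emb-4 and hrpa-1. Aminoacyl-tRNA synthetases had 3 of 32 and proteasome subunits 3 of 33, all with pooled signals between 81.5 and 107.

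Cell-division genes had 5 of 72 (6.94%), led by knl-3, a kinetochore protein gene, at 192 pooled, 107 in replicate 1 and 83.4 in replicate 2. The next was pcn-1, the sliding clamp of DNA replication, with 164 in the pooled list. Histone genes had 4 of 81 (4.94%), led by the linker histone gene hil-7 at 161, and nuclear pore genes 2 of 41 (4.88%), npp-8 and npp-19. These shares lay near that of all genes.

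Of 26 pharynx regulators 4 had a member (15.4%, interval 4.36 to 34.9%), and 2 of 26 with a window of 500 bp upstream only. Their pooled signals ran from 85.5 to 185, around the member median of 99.1. The NK-type homeobox gene ceh-27 had a member 17 bp downstream of its 5′ end, with a pooled signal of 185, with 61.7 in replicate 1 and 123 in replicate 2. The member 253 bp upstream of pha-4, the FoxA factor that specifies the pharynx, had 110.1 pooled, 54.8 in replicate 1 and 65.5 in replicate 2. The tbx-2 member had 96.1, 54.1 and 36.0 in the same order. The member 23 bp downstream of the 5′ end of ceh-22, an Nkx2-type factor of pharyngeal muscle, had 85.5, 44.3 and 44.1.

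Of 15 pharyngeal muscle genes 2 had a member. That of eat-18, a nicotinic receptor accessory protein, had a pooled signal of 119, with 72.8 in replicate 1 and 45.4 in replicate 2. That of myo-2, the pharyngeal myosin heavy chain, stood 103 bp upstream at 83.2 pooled, with 23.0 in replicate 1 and 57.0 in replicate 2. The myo-2 peak was weak in replicate 1. The gene pha-2 itself had no member in reach, and the nearest pooled peak lay 19990 bp upstream of its 5′ end, with a signal of 36.3.

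Among other developmental genes, those named ceh had 4 of 63 (6.35%), ceh-27, ceh-22, ceh-51 and the Hox gene ceh-13, and a list of further homeobox and Hox genes and their partners had 5 of 38 (13.2%). Among those 5 was unc-37, a Groucho-type co-repressor that has no homeobox. That second list shares ceh-13 and was led by ttx-1, an Otx-type factor of thermosensory neurons, at 150.1 pooled, 74.8 in replicate 1 and 65.1 in replicate 2, 291 bp downstream of its 5′ end. With a window of 500 bp upstream only, these counts were 0 of 63 and 1 of 38. Body wall muscle genes had 7 of 37 (18.9%, interval 7.96 to 35.2%), with pooled signals from 84.1 to 112, led by act-3, an actin gene, unc-60, mlc-2 and unc-52. Wnt, Notch, TGF-beta and Ras signalling genes had 7 of 63, led by wrm-1, a beta-catenin, at 134, and 3 of 63 with the window of 500 bp upstream only.

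Neuronal genes had 3 of 40, led by syd-2, a liprin of synapses, at a pooled signal of 201.5, with 107 in replicate 1 and 87.8 in replicate 2, and daf-19, the RFX factor of cilia, at 199.7. The list named for epidermis and epithelial junctions had 3 of 33, hmp-1, pkc-3 and lin-5. That of germline and maternal genes had 3 of 46, cgh-1, sup-26 and skn-1, with pooled signals from 83.2 to 103. No replicate 1 summit lay in the interval of sup-26. The bHLH list had 3 of 39, mdl-1, hlh-4 and hif-1. Nuclear hormone receptors had 13 of 274 (4.74%), led by nhr-1 (162), nhr-48 (159.6), nhr-95 and nhr-32, a share near that of all genes.

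The scarcest lists were those of large, narrowly expressed families. F-box, MATH, lectin and chemoreceptor genes had 15 of 1911 (0.785%, interval 0.440 to 1.29%), led by clec-53 at 262, and cuticle collagens had 1 of 176 (0.568%), col-33 at 89.7. Intestinal genes had 0 of 31, which allows a share of up to 9.68% by the limit of 3 counts, and up to 11.2% by the interval used for the other lists. With the window of 500 bp upstream only, counts also moved by over 1.5 times for F-box, MATH, lectin and chemoreceptor genes (8), nuclear hormone receptors (5), nuclear pore genes (4), histones (2), proteasome subunits (1), epidermal and junction genes (1) and collagens (0). The lists had been drawn up with earlier results of these data known, and no enrichment test was made.

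**Figure D4:**
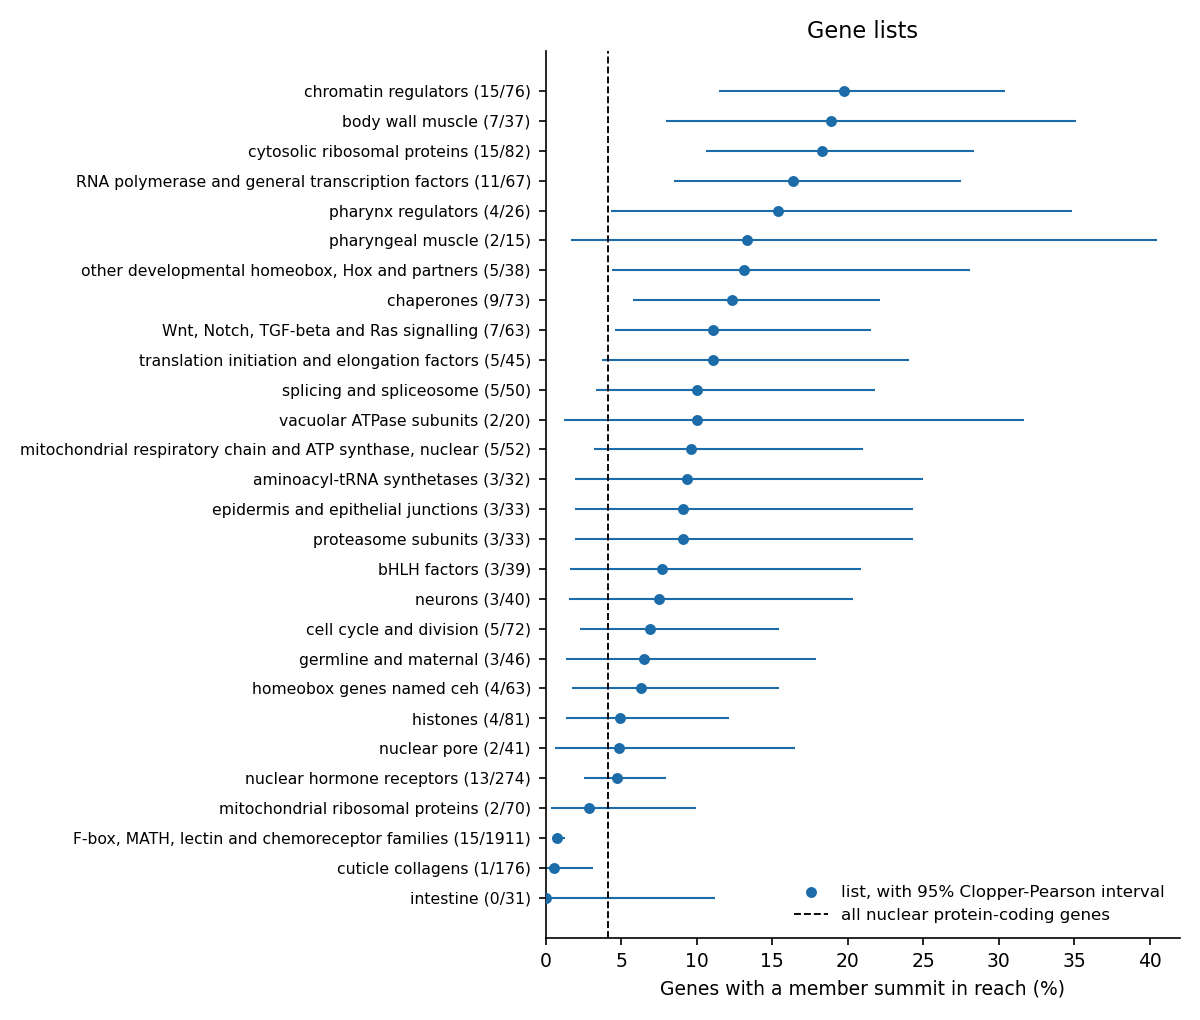
Percent of the genes in each of 28 lists that had a member summit in reach, with 95% Clopper-Pearson intervals (lines) and the numbers in reach and in the list in parentheses; the dashed line marks all nuclear protein-coding genes (4.14%). Chromatin regulators (19.7%), body wall muscle (18.9%) and cytosolic ribosomal proteins (18.3%) stand highest, and the intestinal list has none.

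Member summits were richer in G and C than their surroundings. The median GC content of the 75 bp on either side of the summit was 42.4%, with quartiles of 35.8 and 48.3%, against 33.8% in windows 500 bp upstream, 36.4% in windows 500 bp downstream and 34.4% over all eligible positions. In 613 of 843 members the summit window exceeded the upstream one, and in 541 it exceeded the downstream one. Divergent promoter peaks had a median of 42.4% and peaks with no gene start in reach one of 41.7%. In the central window of 25 bp to each side, the pooled GC content was 44.1% in members, 45.9% in divergent promoter peaks and 41.6% in peaks with no gene start in reach. The strongest 100 members had a median of 47.0% and the weakest 100 one of 40.7%. GC content can alter the yield of sequenced fragments, and its part in the signal was not tested.

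**Figure D5:**
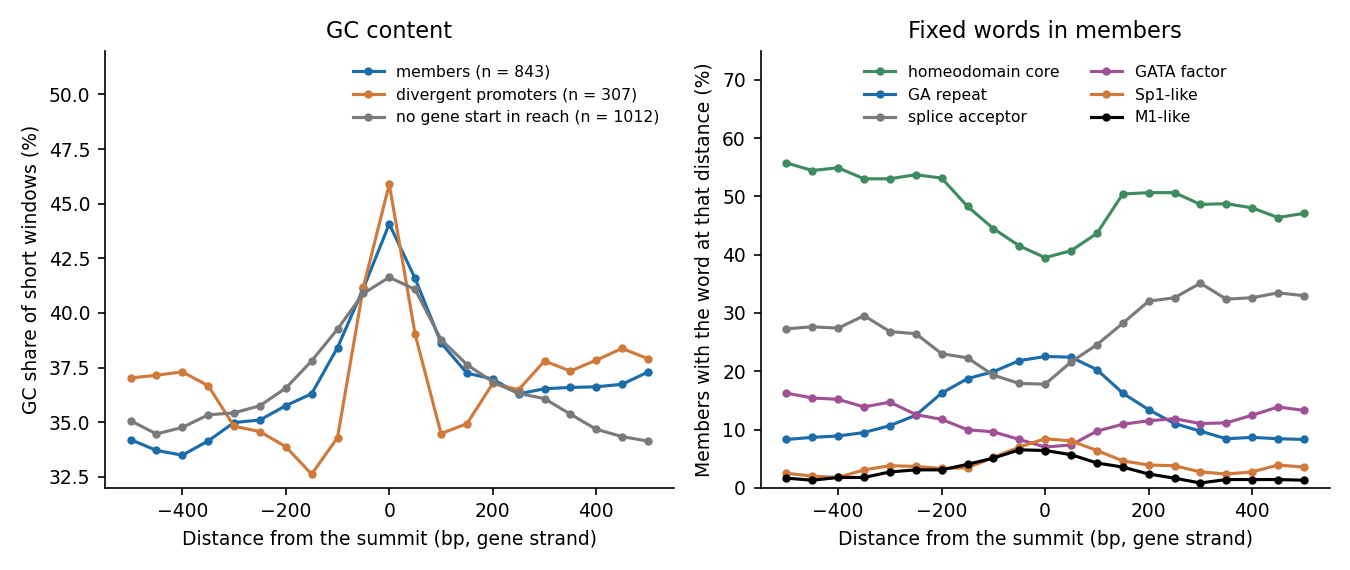
Left, GC content in percent of 51 bp windows by distance from the summit in bp on the gene strand, for members, divergent promoters and peaks with no gene start in reach; members reach 44.1% at the summit. Right, percent of members whose window at each distance holds each of 6 fixed words; the GA repeat rises to 22.5% at the summit while the homeodomain core drops to 39.5%.

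Of the words more frequent at member summits than in both flanks, the GA repeat was the commonest. GAGAGA or TCTCTC stood in 190 members (22.5%, interval 19.8 to 25.5%), against 8.30% in the upstream and 8.30% in the downstream windows and 8.24% over all eligible positions. In 175 members the repeat was at the summit and not upstream, and in 55 the reverse held. It read TCTCTC alone on the gene strand in 116 members, GAGAGA alone in 62 and both in 12. Divergent promoter peaks held it in 17.6% and peaks with no gene start in reach in 22.0%, so it was not a feature of these promoters alone.

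GC-rich words behaved alike. The Sp1-like CCGCCC, a site of Sp and KLF factors, stood in 71 members (8.42%, interval 6.64 to 10.5%), against 2.49% upstream and 3.56% downstream. Divergent promoter peaks held it in 15.0% (interval 11.2 to 19.5%) and peaks with no gene start in reach in 6.92%. CTGCGTC, a word found upstream of many broadly expressed worm genes, stood in 54 members (6.41%), against 1.66% upstream and 1.30% downstream. Peaks with no gene start in reach held CTGCGTC in 7.91% and divergent promoter peaks in 5.86%. Neither word was thus a feature of these promoters alone. At least 1 of these 3 words was present in 272 members (32.3%), and 571 had none. The median pooled signal was 102 with and 97.7 without the GA repeat, 103 with and 99.0 without CCGCCC, and 103 with and 98.7 without CTGCGTC. These differences were small beside the quartiles of member signal.

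Words of the kind that homeodomains bind were not more frequent at the summits than in both flanks. TAATT stood in 333 members (39.5%, interval 36.2 to 42.9%), against 55.8% upstream, 47.1% downstream and 51.3% of all eligible windows. The Hex-type words CAATTAA and CATTAAA stood in 31 (3.68%) and 38 members (4.51%), against 4.47% and 4.74% of eligible windows, and 66 members (7.83%) held at least one. The strongest 100 members held TAATT in 30 cases and the weakest 100 in 49. A word count in a window of this length says nothing about whether PHA-2 contacts the DNA there.

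Of the other words, TGTTTAC, a FoxA site such as PHA-4 binds, stood in 26 members (3.08%, interval 2.02 to 4.49%), against 1.86% of eligible windows. In the flanks it stood in 1.78% of upstream windows and 0.712% of downstream windows, both below that interval. Upstream and between genes, it stood in 3.09% of members (interval 1.84 to 4.84%) and 2.32% of eligible windows, which lies inside that interval. Divergent promoter peaks held TGTTTAC in 2.61% and peaks with no gene start in reach in 1.98%. The GATA word TGATAA stood in 59 (7.0%), against 16.3% upstream and 14.9% of eligible windows. The splice-acceptor word TTTCAG stood in 150 (17.8%), against 27.3% upstream and 33.0% downstream. CCAAT stood in 213 (25.3%), against 28.6% of eligible windows. The TATA box word TATAAA stood in 107 members (12.7%) and 17.98% of eligible windows, and a run of T or A, TTTTTTTT or AAAAAAAA, in 11.98% and 17.003%. The E-box CACGTG stood in 2.49% and 2.57%, and TATTTAC, a variant FoxA word, in 3.08% and 3.13%. The B box GTTCGANNC, part of the internal promoter of tRNA genes, stood in 17 members (2.02%) and 0.977% of eligible windows.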

How the data were processed

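Whole late embryos of 1 group, with 2 biological replicates, were profiled by ChIP-seq of tagged PHA-2. The deposited narrowPeak lists on ce11 were used: the authors' relaxed list of each replicate (23371 and 24336 peaks), the pooled relaxed list (30000) and the optimal list (878). The signal value of each peak is the authors' own, deposited without read counts. The deposited −log10 q-value was read only to check the lists. The summit offset is as deposited by the authors. The aligner and the peak caller were not given in the sources used here, and depth per sample is unknown. Signal ranked and described peaks within a list, and the pooled and replicate values of the same member were set side by side although each list was called separately.

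Summits were placed on Ensembl release 115 genes and the RefSeq WBcel235 genome, the same assembly as ce11, with Python 3.11.15, pandas 2.3.3, numpy 2.4.6, scipy 1.17.1 and matplotlib 3.10.9. A gene was in reach when a summit lay within 1000 bp before or 500 bp after its 5′ end. The class assignment was tested on simulated data, where 200 of 200 placed peaks were recovered. A replicate match is a replicate summit inside the member's interval, and the strongest was taken where there were several. Eligible positions were all positions that met the position criteria, taken every 10 bp for location and every 200 bp for sequence. Words were searched on both strands within 75 bp on either side of the summit, 28 gene lists were counted, and intervals are 95% Clopper-Pearson intervals, which cover the counting of peaks or genes only. A zero count was given a limit of 3 counts.

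Members, gene lists and words were chosen with earlier results of these data known. Named were the 20 members of highest signal, the 3 on each side of the threshold, up to 4 genes of highest member signal per list, the 5 members in each direction whose replicate ranks differed most, and pha-2; other genes, the pair of words and 7 of the printed sequences were chosen after their values were seen. Alternatives were signal thresholds of 60 and 120, other promoter windows, a wider distance from small-RNA genes, 1 peak per overlapping set, closer replicate matches, other window lengths and single-replicate lists. There was no second group, so no test between conditions was made.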

Additional observations from a re-analysis of the deposited data

How the results depend on the processing

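In every setting summits were mainly upstream and the median distance was negative. The promoter windows reach further upstream than downstream, which favours both. Eligible positions of the main window were 64.3% upstream, with a median of −211 bp. With a threshold of 60 there were 2039 members and 1879 genes in reach, 85.8% matched in both replicates, 73.5% upstream, a median distance of −211 bp, 16.3% on X and a median GC of 39.1%. With a threshold of 120 the values were 235 members, 241 genes, 99.1%, 90.6%, −249 bp and 45.7%. A window of 500 bp upstream only left all summits upstream (100%), by its construction, with a median of −214.5 bp. A window of 2000 bp upstream gave 85.4%, −365.5 bp and a GC of 43.0%. Requiring replicate summits within 100 bp gave 82.8% matched, and windows of 25 bp to each side a GC of 45.1%.

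Built from one replicate's list in place of the pooled one, members numbered 794 to 832 with 768 to 805 genes in reach, 79.7 to 82.0% upstream, a median of −249.5 to −238.5 bp, 17.3 to 18.5% on X and a GC of 41.1 to 41.7%. The list without replicate 1 held 68.9% of the members and that without replicate 2 held 70.6%. A match in both replicates has no value in those settings. Searching 150 bp on either side of the summit raised 14 of 15 word shares, since a longer window holds more words. With 500 bp upstream only, 12 of 28 gene-list counts moved by over 1.5 times.

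Restricting the words to members without an ncRNA gene nearby, or to members upstream and between genes, moved none of 15 shares past its interval. Among members strongest in both replicates, TTTTTTTT fell to 8.89% and TTTCAG to 12.1%. These 3 subsets were chosen after seeing the data. The causes of these shifts were not tested. No paired analysis was possible because there is 1 group. Depth is unknown, so no limit of detection can be given for a single peak.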
